A study of Homo sapiens with 24 samples.

Results

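The comparison described here is between KARPAS-422 cells 2 days after the start of treatment with an EZH2 inhibitor and KARPAS-422 cells given DMSO for the same time. It compares 6 arrays of the 24 in the series, 3 per group, chosen by their titles, over all 19775 genes that a probe set with a single gene symbol names. The fit took in all 24 arrays, and each gene's spread was estimated over the 8 groups together. KARPAS-422 is an established human cell line from a diffuse large B-cell lymphoma, and every group of the series, the DMSO groups included, carries the label EZH2 Y641N for its genotype. The inhibitor was given at 5 uM and its name is not in the labels, so that an effect of this compound and an effect of blocking EZH2 cannot be told apart here. The labels call the 3 samples of a group biological replicates of this 1 cell line, with no further account of how cultures were kept apart. The p-values therefore measure the spread between such samples within groups, pooled over the 8 groups and not over the 6 day 2 arrays alone. The other groups are the same treatments at days 1, 3 and 6.

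EZH2 carries the enzymatic activity of PRC2, a Polycomb complex that methylates lysine 27 of histone H3 and thereby keeps genes silent, often genes whose promoters are rich in CpG. In germinal centre B cells EZH2 is abundant and holds back genes of cell cycle exit and of later differentiation. The mutated residue lies in the catalytic domain, and mutants of it are known in lymphomas of germinal centre origin for raising trimethylation of that lysine. An inhibitor of the enzyme leaves the protein in place and lets the mark fade as histones are replaced and cells divide; transcript responses that build over days are known for this class of compound.

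Values are log2 expression, where a difference of 1 is a 2-fold change. Every difference is inhibitor minus DMSO, given with its standard error from limma (SE, for 3 arrays in each group and the spread pooled over the 8 groups). A gene is called, and said to have risen or fallen, when limma's adjusted p over all 19775 genes was under 0.05. At day 2, 706 genes rose (3.57% of those tested) and 163 fell (0.824%). Of the 869 calls 81.2% were therefore upward. At an unadjusted limma p under 0.05 there were 1520 genes higher and 1796 lower, so the upward majority belongs to the adjusted calls. The 3 inhibitor arrays lay wholly above the 3 DMSO arrays for 703 of the genes that rose, and wholly below them for 162 of those that fell. Such separation alone was found in 9.34% of all genes upward and in 13.4% downward.

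Upward differences were also larger. Their median was 0.67, with 164 genes at 2-fold or more and 11 at 4-fold or more, against a median of -0.34 and 2 genes at 2-fold or more among those that fell. The median of all genes was -0.04 and 37.7% of them lay above 0, so most genes sat slightly below 0 while the calls lay mostly above it. When every difference was shifted so that the median gene lay at 0, the calls were 885 upward and 75 downward. With the replicate number as a block they were 1126 and 523. With only the 6 arrays of day 2 in the fit they were 647 and 51, of which 550 and 41 were among the 706 and 163. Leaving out 1 array at a time gave 474 to 620 upward calls. The downward count was less stable: it was 79, 75, 100, 63 and 81 without DMSO replicate 2, DMSO replicate 3, inhibitor replicate 1, inhibitor replicate 2 and inhibitor replicate 3.

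**Figure D1:**
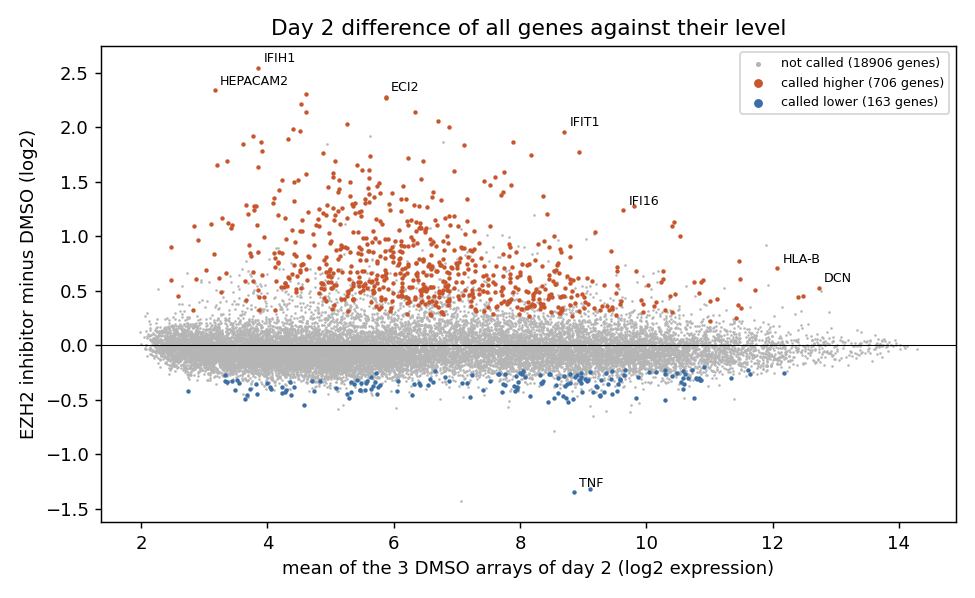
Each point is a gene, with the mean of its 3 DMSO arrays of day 2 on the x axis (log2 expression) and the inhibitor minus DMSO difference on the y axis (log2). The 706 genes called higher spread up to 2.55, mostly at middle levels, while nearly all of the 163 called lower lie between 0 and -1, with TNF and LTA apart at -1.35 and -1.32.

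On the first principal component of the 6 arrays, which held 47.9% of the variance, the DMSO arrays lay at -18.1, -17.3 and -13.3 and the inhibitor arrays at 10.8, 17.5 and 20.4. The second component held 25% and placed the arrays numbered 3 of both arms apart, at -20.9 for DMSO and -10.4 for the inhibitor, against 2.6 to 13.9 for the other 4. Correlations between any 2 arrays were 0.9923 to 0.9978. Without the arrays numbered 3 of every group, 464 genes rose and 41 fell, of which 418 and 19 were among those called with all arrays.

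The arrays carried the transcripts of a germinal centre B cell in both arms. MS4A1, which encodes CD20, lay between 12.41 and 12.70 on the 6 arrays, and BCL6, the master repressor of the germinal centre programme, between 12.62 and 12.80. PAX5, EBF1, CD79A, CD79B, MME and MYBL1 were also bright, with DMSO means of 11.75, 11.16, 9.12, 10.55, 9.03 and 10.65. LMO2 was the exception among the defining markers, at 4.48 to 5.66 on the 6 arrays. The T cell gene CD3E lay at 4.70 to 4.97 and the monocyte gene CD14 at 4.05 to 4.56. The T and NK cell list summed to 130.2 to 132.2 on the DMSO arrays and 129.1 to 130.4 on the inhibitor arrays over its 25 members, with 0 called by limma (0 higher and 1 lower at an unadjusted p under 0.05). Not every marker of other cells was dim. In the T and NK cell list, whose DMSO median was 5.10, CD3G lay at 10.77 to 11.32 with the arms overlapping. CD247 and CD3D of that list had means of 9.90 and 7.21 with DMSO and 9.91 and 7.16 with the inhibitor. The myeloid marker CD1C had a mean of 8.71 in both arms, against a DMSO median of 4.30 for its list. The EZH2 transcript read 10.31, 10.20 and 10.03 on the DMSO arrays and 10.23, 10.08 and 9.97 on the inhibitor arrays, a difference of -0.09 ± 0.12 (adjusted p = 0.76), and being the transcript of an enzyme whose activity is inhibited it does not check the labels.

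The genes that answer type I interferon had the highest share of upward calls among the gene lists examined. Viral RNA or DNA in the cytosol is recognised by sensors such as IFIH1, interferon is made, and its receptor acts through kinases such as JAK1 and factors such as IRF9 on promoters that hold an interferon-stimulated response element. Its core was searched as GAAA, any 2 bases and GAAA again, on both strands of the RefSeq window (GRCh38.p14) from 250 bases before to 50 after the first listed start of each gene. The upstream stretches of 6 genes that rose, chosen after the matches were seen, are shown so that the element can be read directly, 5′ to 3′ on the gene's strand, with each match in capitals. TTTC, any 2 bases and TTTC is the same element on the other strand.
IFIH1: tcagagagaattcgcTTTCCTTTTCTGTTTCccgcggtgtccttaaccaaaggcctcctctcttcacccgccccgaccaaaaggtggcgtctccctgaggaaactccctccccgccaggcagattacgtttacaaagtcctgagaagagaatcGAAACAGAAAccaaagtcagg
IFIT1: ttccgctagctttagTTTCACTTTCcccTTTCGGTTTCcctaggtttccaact
IFIT3: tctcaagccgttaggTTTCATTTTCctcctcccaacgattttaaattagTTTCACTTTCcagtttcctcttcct
DDX60: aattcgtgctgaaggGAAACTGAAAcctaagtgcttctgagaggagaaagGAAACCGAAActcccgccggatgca
DDX60L: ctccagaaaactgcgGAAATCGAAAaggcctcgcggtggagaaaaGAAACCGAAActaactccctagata
MYD88: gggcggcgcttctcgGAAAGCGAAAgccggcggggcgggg

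These stretches lie upstream of the transcription start, at chr2:162318685-162318858 (minus strand) for IFIH1, chr10:89392492-89392544 (plus) for IFIT1, chr10:89327826-89327899 (plus) for IFIT3, chr4:168318781-168318855 (minus) for DDX60, chr4:168480518-168480587 (minus) for DDX60L and chr3:38138585-38138624 (plus) for MYD88. The first matching base lay 159 bases before the start in IFIH1, 116 in IFIT1 and 61 in MYD88. IFIH1 holds 3 matches, of which a pair overlaps, and the IFIT1 and IFIT3 windows hold 2 each. A match to these letters is a description and not a shown binding site.

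Of the 19775 genes 15384 had a RefSeq window, and 453 of those windows (2.94%) held the element. It was found in 41 of 584 windows of genes that rose (7.02%) and in 0 of 125 windows of genes that fell. Among the genes that rose by 2-fold or more it was in 16 of 128 (12.5%). The list of interferon-stimulated genes held it in 28 of 39 windows, which includes 12 of the 18 windows of members that rose, and the share among genes that rose outside that list was 29 of 566 (5.12%). The list holds known interferon targets, so its own share is no independent observation.

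Of the list's 49 measured interferon-stimulated effector genes 25 rose (51%, against the 3.57% of all genes) and 0 fell, with a median difference of 0.91 against -0.04 for all genes. The mean of the members was 8.25, 8.02 and 8.20 on the DMSO arrays and 8.87, 9.13 and 9.33 on the inhibitor arrays, so the arms did not overlap. The list and its size at this day were known from earlier results of these arrays. OASL, an antiviral protein related to the oligoadenylate synthetases, read 6.66, 6.14 and 6.19 with DMSO and 7.96, 8.68 and 8.78 with the inhibitor (2.14 ± 0.38, adjusted p = 0.0012). IFIT1, which binds viral RNA that lacks a host cap, went from 8.82, 8.39 and 8.88 to 10.04, 10.79 and 11.13 (1.96 ± 0.40, adjusted p = 0.0042). In both genes inhibitor replicate 1 was the lowest of its arm, and still lay above every DMSO array.

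IFIT2, IFIT3, XAF1 and RSAD2 rose by 2.05, 1.77, 1.86 and 1.84. IFIT2 and IFIT3 are relatives of IFIT1, XAF1 promotes apoptosis, and RSAD2 encodes viperin, an inhibitor of viral replication. OAS2, an oligoadenylate synthetase that activates RNase L, rose by 1.54, and its call was lost without DMSO replicate 2, inhibitor replicate 2 or inhibitor replicate 3. The brightest members differed by less. ISG15, a ubiquitin-like modifier, was at 12.76 with DMSO and 13.26 with the inhibitor (adjusted p = 0.34), IFI6 at 11.90 and 12.81 (0.13), MX1 at 11.92 and 12.47 (0.37) and LAP3 at 12.02 and 12.29 (0.058), and none of these passed the test. The number of members called was 18 to 26 when 1 array was left out and 18 without the arrays numbered 3, while the list's median lay between 0.77 and 1.04 in all settings tried.

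Of 24 measured genes of nucleic acid sensing 9 rose (37.5%, against 3.57% of all genes) and 1 fell (4.17%, against 0.824%). The list's median was 0.24, with 9 members below 0. The gene that fell was IKBKE, a kinase downstream of the sensors, by 0.33 ± 0.07 (adjusted p = 0.0087). No member was called lower without DMSO replicate 3, without the arrays numbered 3 or with only the day 2 arrays in the fit. IFIH1 (MDA5), the sensor of long double-stranded RNA, had the largest difference of any called gene. It read 4.08, 3.98 and 3.50 with DMSO and 6.17, 7.03 and 6.01 with the inhibitor, a difference of 2.55 ± 0.29 (adjusted p = 8.2e-06), or 5.84-fold. The DMSO values belong to the dimmest part of the table, and the inhibitor values to its middle. AIM2, a sensor of cytosolic DNA, rose by 1.32 ± 0.24 and IFI16, a nuclear DNA sensor that was already bright at 9.49 to 9.77, by 1.24 ± 0.16. DDX60 and DDX60L, helicases that assist RNA sensing and resemble each other in sequence, rose by 0.95 and 1.26, and the adaptor MYD88 by 0.58. TLR7, an endosomal receptor for single-stranded RNA, rose by 1.25, a call that was lost without inhibitor replicate 2. ADAR, which edits double-stranded RNA, was at 11.64 and 11.99 (adjusted p = 0.062), and SAMHD1 at 10.07 and 10.58 (0.064).

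Of 31 measured interferons, receptors and members of the signalling chain between them 1 rose and 0 fell. The share of 3.23% is close to the 3.57% of all genes. The gene called was JAK1, a kinase that serves interferon receptors. It read 8.49, 8.53 and 8.36 with DMSO and 9.13, 8.98 and 9.19 with the inhibitor (0.64 ± 0.09, adjusted p = 8e-05). The list's median was 0.05. IRF9 was at 9.66 and 10.39 (adjusted p = 0.14) and IRF8, a regulator of germinal centre cells, at 11.93 and 12.05 (0.43). IFNB1, the gene for interferon beta, was chosen after its values were seen: it read 3.74, 4.06 and 4.13 with DMSO and 4.21, 4.48 and 4.32 with the inhibitor (adjusted p = 0.54), dim on every array. With only the day 2 arrays in the fit 5 members of the list were called higher.

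Antigen presentation moved in the same direction by smaller steps. Of 20 class I and peptide loading genes 5 rose (25%, against 3.57% of all genes) and 0 fell, with a list median of 0.21. All 5 were HLA heavy chains. HLA-B read 12.08, 12.03 and 12.11 with DMSO and 12.60, 12.85 and 12.88 with the inhibitor (0.71 ± 0.12, adjusted p = 5e-04), and HLA-C and HLA-E rose by 0.61 and 0.59. HLA-F and HLA-G rose by 0.68 and 0.61, both calls being lost without DMSO replicate 1 or 2 or inhibitor replicate 2 or 3. These genes are near copies of each other, so their probe sets may share signal. B2M, the light chain of class I molecules, was at 13.62 and 13.71 (adjusted p = 0.47). Of 16 class II genes 3 rose (18.8%) and 0 fell. HLA-DOA, a modulator of peptide exchange, rose by 0.73 ± 0.10, HLA-DRA by 0.50 and the invariant chain CD74 by 0.25. Only HLA-DOA kept its call without DMSO replicate 1 or 2 or inhibitor replicate 2 or 3, and it lost the call when its probe sets were averaged.

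**Figure D2:**
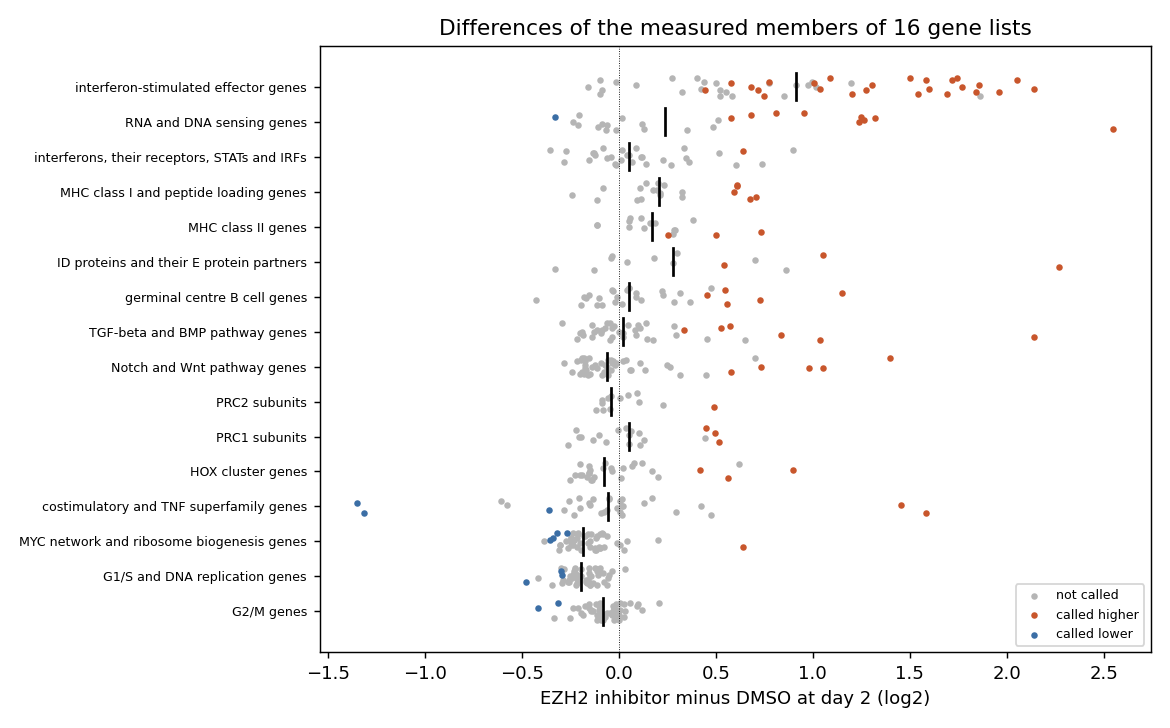
Each point is a measured member of 1 of 16 gene lists, placed by its inhibitor minus DMSO difference at day 2 (log2), and black bars are list medians. The interferon-stimulated effector genes centre at 0.91, the RNA and DNA sensing genes at 0.24, and the G1/S genes at -0.20.

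Outside the interferon response the highest genes came from unrelated families, and several were as tightly measured. SLC25A43, a carrier of the inner mitochondrial membrane encoded on the X chromosome, read 4.37, 4.58 and 4.63 with DMSO and 6.67, 6.91 and 6.62 with the inhibitor. Its difference of 2.21 ± 0.11 was the clearest of all genes by p (adjusted p = 3.9e-11). ECI2, an isomerase needed to oxidise unsaturated fatty acids, went from 5.51, 5.84 and 6.27 to 7.95, 8.30 and 8.20 (2.28 ± 0.19, adjusted p = 2.6e-07). Of 45 SLC25 genes SLC25A43 alone rose (2.22%) and 2 fell (4.44%, against 0.824% of all genes). Of 31 fatty acid oxidation genes ECI2 alone rose (3.23%) and 0 fell. The list medians were -0.02 and 0.03. Neither upward share is above the 3.57% of all genes, so a lone call is no result about either family.

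Their promoters are shown as examples of the CpG-rich windows common among genes that rose, over the 100 bases before the start on GRCh38.p14, at chrX:119399236-119399335 (plus strand) for SLC25A43 and chr6:4135576-4135675 (minus strand) for ECI2, with CG in capitals.
SLC25A43: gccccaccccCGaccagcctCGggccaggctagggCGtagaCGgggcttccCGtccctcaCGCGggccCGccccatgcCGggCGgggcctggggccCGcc
ECI2: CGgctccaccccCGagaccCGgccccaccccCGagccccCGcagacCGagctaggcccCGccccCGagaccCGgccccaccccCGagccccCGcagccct

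Each of these stretches holds 11 CG pairs, and their 300-base windows have observed to expected CpG ratios of 0.772 and 0.669. A ratio of 0.6 or more was found in 78.4% of the windows of genes that rose, 72.8% of those that fell and 66.5% of all. The excess depended on the level of the gene. With all genes divided by their DMSO level into 5 classes of 3955, the share in class 1, the dimmest, was 63.2% of 38 genes that rose against 40.5% of all. It was 75.6% of 90 against 47.1% in class 2 and 79.9% of 209 against 61.8% in class 3. In classes 4 and 5, the brightest, it turned, with 82.2% of 197 against 86.1% and 74% of 50 against 90.2%. The interferon-stimulated members that rose were unlike the rest, with that ratio reached in 22.2% of 18 windows. The share of all genes that rose also differed by level, at 1.11%, 2.93%, 6.37%, 5.82% and 1.62% from class 1 to class 5. Below, some lists are set beside the class that holds their median level.

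**Figure D3:**
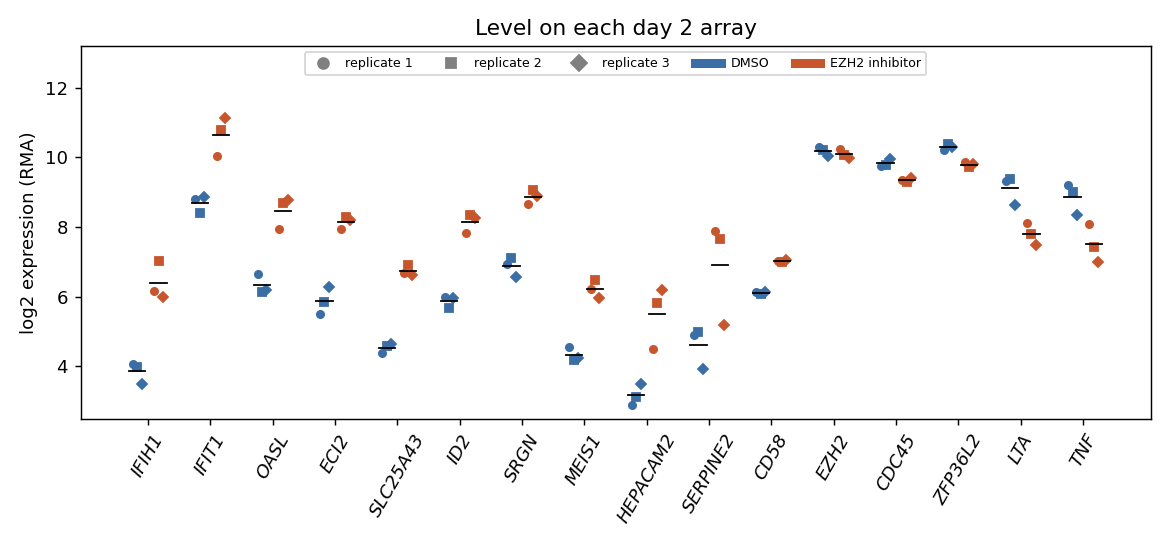
Each symbol is the log2 expression of a gene on 1 day 2 array, with DMSO in blue, the inhibitor in orange, the replicate number by shape and a bar at each group's mean. SLC25A43 and CD58 separate with little spread within arms, IFIH1 separates with a wider spread, SERPINE2 shows replicate 3 far below the other arrays of its arm, and EZH2 overlaps between arms.

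Of 13 genes on the list of ID proteins, their E protein partners and related factors 3 rose (23.1%, against 3.57% of all genes) and 0 fell. The list's median was 0.28. ID proteins bind E proteins such as TCF3, TCF4 and TCF12, which drive B cell genes, and keep them off DNA. ID2 read 6.00, 5.68 and 5.96 with DMSO and 7.84, 8.34 and 8.27 with the inhibitor (2.27 ± 0.26, adjusted p = 1.1e-05), and its other probe set was higher by 1.56. ID3 rose by 1.05 ± 0.19 and HEY1, a Notch target, by 0.54, the last call being lost without inhibitor replicate 3. The E proteins themselves did not pass the test, with TCF12 at 0.28 (adjusted p = 0.095), TCF4 at 0.18 (0.28) and TCF3 at -0.13 (0.39). Nor did the other ID genes, ID1 at 0.70 (adjusted p = 0.44) and ID4 at 0.04 (0.86).

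Developmental transcription factors are classical targets of PRC2. Of 107 of them 5 rose (4.67%, against 3.57% of all genes) and 1 fell (0.935%, against 0.824%), shares near those of all genes, with a median of -0.03, and their DMSO median of 4.64 lies low on this scale. MEIS1, a partner of HOX proteins in blood stem cells, went from 4.57, 4.18 and 4.23 to 6.21, 6.48 and 5.97 (1.89 ± 0.21, adjusted p = 5.6e-06). SOX9, a regulator of cartilage and epithelial stem cells that this line already expressed at 8.01, 8.29 and 7.28, rose to 9.31, 9.35 and 9.34, and SNAI2, a repressor of epithelial genes, rose by 0.86 ± 0.10, from a mean of 9.44 to one of 10.30. PBX3 and MSX1 rose by 0.59 and 0.46. The PBX3 call was lost without DMSO replicate 1 or 2 or inhibitor replicate 2 or 3. The MSX1 call was lost without any 1 array, and when its probe sets were averaged. Of 28 HOX genes 3 rose (10.7%), HOXB3 by 0.90, HOXB7 by 0.56 and HOXC4 by 0.42, and the median was -0.08. Their DMSO means were 5.18, 8.57 and 8.45, against 4.63 for the median HOX gene, and the other probe set of HOXB3 differed by -0.14. HOXB7 and HOXC4 lost their calls without the arrays numbered 3.

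Of 13 PRC2 subunits and partners 1 rose (7.69%, against 3.57% of all genes) and 0 fell. JARID2, which guides the complex to CpG islands, rose by 0.49 ± 0.10 (adjusted p = 0.0051), while SUZ12, EED and RBBP4 differed by 0.01, -0.06 and -0.09. In PRC1, which reads the PRC2 mark, RYBP, PHC1 and CBX7 rose by 0.52, 0.50 and 0.45, which is 3 of 19 (15.8%), and the CBX7 call was lost without DMSO replicate 1 or 2 or inhibitor replicate 3. JARID2 and CBX7 lost the call without the arrays numbered 3.

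The list of 39 TGF-beta and BMP genes had a median of 0.02. Of these 6 rose (15.4%, against 3.57% of all genes and 6.37% in level class 3) and 0 fell. These were the BMP-responsive membrane protein TMEM100 (2.14 ± 0.44), the receptors BMPR2 (1.04), TGFBR1 (0.84) and ACVR1B (0.53), the ubiquitin ligase SMURF2 (0.58) and the transducer SMAD5 (0.34). The other probe sets of ACVR1B differed by 0.29, -0.11, 0.07, -0.07 and 0.14, with none called. The ACVR1B and SMAD5 calls were lost when all probe sets of a gene were averaged. BMPR2 was tight, with 5.32, 5.42 and 5.32 against 6.42, 6.32 and 6.42. Of 49 Notch and Wnt genes 5 rose (10.2%, against 3.57% of all genes and 6.37% in level class 3) and 0 fell. Among the 5 were 4 receptors of Wnt proteins: FZD7 by 1.40 ± 0.15, its co-receptor LRP6 by 1.05, FZD3 by 0.98 and FZD1 by 0.73. The FZD1 call was lost without DMSO replicate 2 or inhibitor replicate 3. NOTCH2 rose by 0.58, a call that was lost without any 1 array other than DMSO replicate 2. That list's median was -0.06, and 16 of its 49 members lay above 0. Of 31 MAPK feedback and immediate early genes 2 rose (6.45%, against 6.37% in level class 3) and 0 fell, with a median of -0.03. SPRED2 and DUSP4, which restrain MAPK signalling, rose by 0.80 and 0.59. The SPRED2 call was lost when its probe sets were averaged, and the DUSP4 call without DMSO replicate 1 or 2 or inhibitor replicate 2 or 3. EGR1, an immediate early gene chosen after its values were seen, had the lowest difference of any gene at -1.43 ± 0.60 (adjusted p = 0.21), reading 7.23, 7.32 and 6.65 against 6.42, 5.34 and 5.16. Its arms did not overlap, but its spread was too wide for a call.

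Genes of B cell identity were read as lists of germinal centre, B lineage and plasma cell genes. Of 30 germinal centre genes 5 rose (16.7%, against 3.57% of all genes) and 0 fell, while the upward shares of the other lists were near that of all genes. ASB13, a substrate adaptor of a ubiquitin ligase, went from 6.52, 6.85 and 6.60 to 7.87, 7.87 and 7.68 (1.15 ± 0.11, adjusted p = 1.1e-06), and FOXO1, a transcription factor of the dark zone, rose by 0.56 ± 0.06. KLHL6, LPP and BACH2 rose by 0.45, 0.55 and 0.73. LPP was not called without DMSO replicate 3 or inhibitor replicate 1 or 3, nor BACH2 without DMSO replicate 1 or inhibitor replicate 1. BACH2 restrains plasma cell fate, and its probe sets disagreed in size: the brighter one used here was higher by 0.73 and the other by 2.40. BCL6, POU2AF1 and RGS13 were among the brightest genes of the list and differed by 0.05, -0.11 and 0.31 with none called. Of 38 B lineage genes 1 rose and 1 fell, 2.63% each, against 3.57% and 0.824% of all genes. CXCR4, the receptor that holds cells in the dark zone, rose from 3.79, 3.60 and 4.08 to 4.91, 4.65 and 5.75. CXCR5, the receptor that draws B cells to follicles, fell by 0.40. The first call was lost without any 1 array other than inhibitor replicate 2, the second without any 1 other than inhibitor replicate 3. CD38 rose by 0.94, the 1 call among 25 plasma cell genes (4%), and was not called without DMSO replicate 2 or 3 or inhibitor replicate 2.

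Of 46 integrins and adhesion molecules 6 rose (13%, against 3.57% of all genes and 6.37% in level class 3) and 0 fell. The list's median was -0.05, with 30 members below 0. HEPACAM2, an immunoglobulin superfamily protein, went from 2.90, 3.12 and 3.48 to 4.50, 5.83 and 6.19 (2.34 ± 0.42), with the inhibitor arrays spread widely and all above the DMSO arrays. PECAM1, which cells use to pass endothelium, rose by 1.69 ± 0.25, and ICAM2, CD58 and ITGAV rose by 0.79, 0.92 and 0.91. CD58 is the ligand by which T and NK cells engage a target, and its 6 values were among the tightest, at 6.12, 6.08 and 6.13 against 7.02, 7.0 and 7.07. CD86, which costimulates T cells, rose by 1.46 ± 0.19 with all of its 3 probe sets higher, and TNFSF8, the CD30 ligand, by 1.58 ± 0.18.

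The 2 largest falls were those of neighbouring cytokine genes of the major histocompatibility region. LTA, lymphotoxin alpha, read 9.31, 9.38 and 8.64 with DMSO and 8.12, 7.79 and 7.47 with the inhibitor (-1.32 ± 0.22, adjusted p = 7.1e-04). TNF read 9.20, 9.0 and 8.35 against 8.10, 7.42 and 6.98 (-1.35 ± 0.33, adjusted p = 0.020), and lost its call without DMSO replicate 1 or 2 or inhibitor replicate 2 or 3. In both genes replicate 3 was the lowest of each arm and the arms did not overlap. LTB, the third gene of that cluster, was at 9.37 and 8.76 (-0.61 ± 0.45, adjusted p = 0.53). TNFRSF10A, a death receptor for TRAIL, fell by 0.36. Over the list of 32 costimulatory and TNF superfamily genes 2 rose (6.25%) and 3 fell (9.38%), against 3.57% and 0.824% of all genes. In level class 3, which holds the list's median level of 5.39, 6.37% of genes rose and 0.759% fell. The NF-kB list gave 1 call of 24 (4.17%, close to the 3.57% of all genes), NFKB1 at 0.54 ± 0.09. NFKBIA, the inhibitor that NF-kB itself induces, differed by 0.01.

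All other falls were smaller than 0.6. ZFP36L2, which destabilises messenger RNA, fell by 0.50 ± 0.09 from 10.20, 10.38 and 10.31 to 9.86, 9.72 and 9.80 (adjusted p = 0.0015). SNX22, PLPP5, DUS4L and ASMTL fell by 0.53, 0.48, 0.49 and 0.49, and the ASMTL call was lost when its probe sets were averaged. SNX22 is a sorting nexin, PLPP5 a lipid phosphatase and DUS4L an enzyme that modifies transfer RNA. CDC45, a part of the replicative helicase, fell by 0.48 ± 0.09 from 9.77, 9.78 and 9.96 to 9.36, 9.29 and 9.42 (adjusted p = 0.0028), and POLD1 and MSH6, of the replication and mismatch repair machinery, fell by 0.29 and 0.30. POLD1 was not called without DMSO replicate 3, and MSH6 without any 1 array other than inhibitor replicate 1. FERMT3, an activator of integrins, fell by 0.47.

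Genes of proliferation differed by small amounts. The G1/S, MYC network and G2/M lists had larger shares of downward calls than the 0.824% of all genes. Their median levels lie in class 5 of the DMSO level, where 1.47% of genes fell. Of 56 G1/S and replication genes 3 fell (5.36%), 0 rose and 55 were below 0, with a median of -0.20 against -0.04 for all genes and -0.05 in class 5 of the DMSO level. Their mean was 9.72, 9.74 and 9.74 on the DMSO arrays and 9.57, 9.48 and 9.58 on the inhibitor arrays. Without the arrays numbered 3, 0 of them fell, and 1 fell without DMSO replicate 3. Of 52 MYC network and ribosome biogenesis genes 4 fell (7.69%; FTSJ3, NOLC1, UTP4 and RRP12, by 0.35, 0.34, 0.32 and 0.27) and MXI1, an antagonist of MYC, rose by 0.64 ± 0.14, a call that was lost without DMSO replicate 1. None of those 4 falls held without DMSO replicate 2 or inhibitor replicate 2. The list's median was -0.19 and it was -0.14 when the median gene was shifted to 0. Of 51 G2/M genes 2 fell (3.92%), CDC25A and MYBL2, by 0.42 and 0.32, with 0 called when DMSO replicate 2, inhibitor replicate 2 or inhibitor replicate 3 was left out. None of 7 CDK inhibitor genes was called by limma, with CDKN1B at 0.46 (adjusted p = 0.068), CDKN1A at -0.28 (0.39) and CDKN2A at -0.07 (0.54), and 1 higher and 0 lower at an unadjusted p under 0.05. Ribosomal protein genes, 50 in all, gave 0 calls by limma (0 higher and 0 lower at an unadjusted p under 0.05) and a median of 0.00 with a range of -0.11 to 0.16, at a DMSO median of 13.64.

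Stress and death pathways supplied single genes. CASP4 and CASP1, inflammatory caspases, rose by 1.44 and 1.05, and CARD16, a decoy made from a copy of the CASP1 prodomain, rose by 1.96 ± 0.20. CASP1 and CARD16 are near copies over that stretch and their probe sets may share signal. BID, a trigger of mitochondrial apoptosis, fell by 0.22, a call that was lost without any 1 array. GADD45A and TP53INP1 rose by 1.41 ± 0.23 and 1.10 ± 0.13. They were 2 of 25 p53 target genes (8%, against 3.57% of all genes and 5.82% in level class 4). CCNG1, FAS and CDKN1A of that list differed by -0.01, 0.01 and -0.28. BAG3, a co-chaperone, was the 1 heat shock gene of 16 to rise (6.25%), by 0.75. ABCA1, which exports cholesterol, rose by 1.22, and lost the call without DMSO replicate 3. SRGN, the proteoglycan of secretory granules, rose from 6.93, 7.11 and 6.57 to 8.66, 9.08 and 8.89 (2.01 ± 0.21, adjusted p = 2.4e-06), with a further probe set at 2.17 and another, dim one at 0.10.

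A few genes usually read as marks of other cells were among those that rose. MPEG1, a perforin of macrophages, went from 4.86, 5.01 and 4.79 to 6.32, 6.62 and 7.0. It was the 1 call among 22 myeloid markers (4.55%, against 3.57% of all genes). The summed level of that list was 101.8 to 102.2 with DMSO and 102 to 103.6 with the inhibitor. ACTA2 and DCN rose by 0.59 and 0.53, which is 2 of 20 stromal, endothelial and epithelial markers (10%). The sum of that list was 98.6 to 101 with DMSO and 98.2 to 100.6 with the inhibitor. DCN, the matrix proteoglycan decorin, was bright in both arms, at 12.60 to 12.93 and 13.14 to 13.35. Both calls were lost without DMSO replicate 1 or 2 or inhibitor replicate 2 or 3, and that of ACTA2 also without inhibitor replicate 1. SPP1, the secreted protein osteopontin, rose by 1.99 ± 0.32. The part of other cells in these values was not tested, apart from those sums. SERPINE2, a protease inhibitor, showed how far a single pair of arrays can move a value. It read 4.91, 4.99 and 3.92 with DMSO and 7.89, 7.65 and 5.18 with the inhibitor (2.30 ± 0.64, adjusted p = 0.042), lost its call without any 1 array other than inhibitor replicate 3, and its difference was 1.81 to 3.16 over the 6 ways of leaving 1 out.

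Other probe sets give a second reading of some genes. Of 1242 further probe sets of called genes, tested over all probe sets with a single symbol, 252 were called the same way, 989 were not called and 1, of the kinase gene SIK1, was called the opposite way (-0.37). IFIH1 has 2 dimmer probe sets that were higher by 0.52 and 0.44, well under the 2.55 of the one used. CD58 was higher by 0.77 and 1.01 on its next brightest probe sets, OASL by 1.67, FZD7 by 0.94 and MEIS1 by 0.80. SERPINE2 differed by -0.22 on its other, dim probe set.

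Whether the day 2 calls were seen again was read from the arrays of other days, which share no sample with day 2 but share its estimate of the spread. Of the 706 genes that rose at day 2, 668 (94.6%) were also called higher at day 3, where 8.64% of all genes were, and 705 lay above 0. At day 1, 91 (12.9%) were called higher, against 0.475% of all genes, and 690 lay above 0, with a median of 0.34 against 0.67 at day 2. At day 6, 655 (92.8%) were called higher, against 18.5% of all genes. The falls were less constant. Of 163, 109 (66.9%) were called lower at day 3, where 7.65% of all genes were, 126 (77.3%) at day 6 (26.9% of all genes) and 0 at day 1, where 0.0101% were.

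The falls divided by level. Among the 105 in level classes 4 and 5, 100 (95.2%) were called lower again at day 3 and their median went from -0.32 to -0.49. Of the 58 in classes 1 to 3, 9 (15.5%) were called lower again and their median went from -0.37 to -0.10. HSD11B1, an enzyme that makes active cortisol, differed by -0.45 at day 2, 0.15 at day 3 and 0.10 at day 6, and the ectoenzyme BST1 by -0.33, 0.10 and 0.22. LCT, the lactase gene, is a dim gene that stayed lower, with -0.55 at both day 2 and day 3. Dim genes that rose behaved otherwise, with 387 of 412 (93.9%) called higher again at day 3, against 281 of 294 (95.6%) among the bright. The median level of the 58 dim genes was 5.28 on the DMSO arrays of day 2, against 5.15, 5.03 and 5.07 on those of days 1, 3 and 6, and 4.81 on the inhibitor arrays of day 2, against 5.06, 4.77 and 4.80. Since the day 2 arrays chose the genes, a chance excess there is part of those 2 values.

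**Figure D4:**
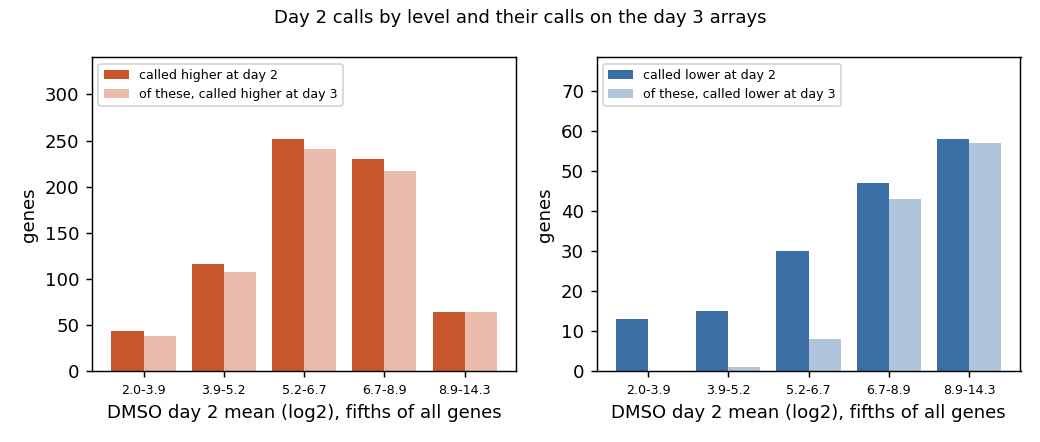
Bars count the genes called at day 2 in each of the 5 classes of DMSO level (x axis, log2 expression) and, in the paler colour, those called in the same direction on the day 3 arrays. Of the genes called higher nearly all were seen again at every level, while of those called lower 0, 1, 8, 43 and 57 were seen again from class 1 to class 5, out of 13, 15, 30, 47 and 58.

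In the fit over all 24 arrays, without weights or a replicate block, no gene passed the test of a difference between the day 2 effect and that of the day before or after. This does not show that the effects were equal. With the replicate number as a block, 6 genes were called higher and 1 lower for day 2 minus day 1, and 9 and 2 for day 3 minus day 2. Without the block limma called 0 genes higher and 0 lower (0% each way) for the day 2 minus day 1 effect. At an unadjusted p under 0.05 there were 425 and 456, and the lowest adjusted p was 0.15. For the day 3 minus day 2 effect it again called 0 and 0 (0% each way), with 693 and 621 at an unadjusted p under 0.05 and a lowest adjusted p of 0.13. The last counts moved with the setting: with array weights 13 genes were higher and 3 lower, 30 were higher without inhibitor replicate 1 of day 3, and 51 were lower without DMSO replicate 1 of day 3. The lowest p was AIM2's, which was higher by 0.07 at day 1, 1.32 at day 2 and 3.35 at day 3. The interferon-stimulated list shows the same order without a test, with medians of 0.26, 0.91 and 1.48 at days 1, 2 and 3 and 0, 25 and 43 members called higher.

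The day 6 effect differed from that of day 2 for many genes, in a comparison added after the values were seen: it was higher for 2080 genes (10.5%) and lower for 2164 (10.9%). Of the 706 genes that rose at day 2, 379 had a larger effect at day 6, 27 a smaller one, and for 300 the difference was not called. In the last group stood genes whose day 2 value was close to that of day 6. SLC25A43 was higher by 1.44, 2.21, 2.22 and 2.45 at days 1, 2, 3 and 6, and ECI2 by 1.37, 2.28, 2.35 and 2.54. HEBP1, a haem-binding protein, was higher by 0.99, 1.57, 1.62 and 1.60. SRGN, MEIS1 and FZD7 belonged there too. By contrast MPEG1 was higher by 0.59, 1.76, 2.84 and 6.34, and AIM2, RIN2, CXCR4 and H2AC6 were higher by more than 5 at day 6. CD58 went the other way, from 0.92 at day 2 to 0.32 at day 6 (adjusted p of the difference = 0.0045), and NOTCH2, SMCO4, GPHN, ARG2 and HMGB3 rose at day 2 and were called lower at day 6. These genes were chosen after their values were seen, and of the last 5 only GPHN kept its day 2 call without each array in turn. The day 2 arrays entered both the call and this difference, so that a chance excess at day 2 counts towards a smaller later effect.

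**Figure D5:**
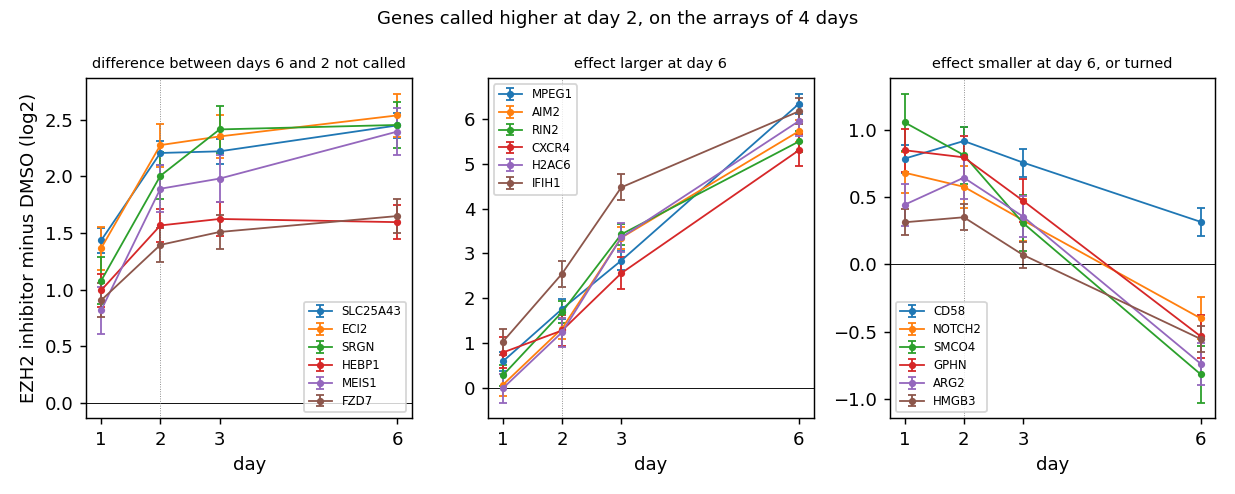
Lines join the inhibitor minus DMSO differences (log2, with SE, n = 3 arrays per group) of genes called higher at day 2, on the arrays of days 1, 2, 3 and 6. SLC25A43 and ECI2 stand near 2.2 at day 2 and near 2.5 at day 6, MPEG1 climbs from 1.76 to 6.34, and NOTCH2 goes from 0.58 to below 0, with a scale of its own in each panel.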

How the data were processed

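The authors deposited log2 expression values of 54613 probe sets, which the submitters' processing notes credit to RMA under R 2.10.1. The log base is inferred from the range of the values, 1.72 to 14.33. RMA equalises the distribution of the arrays and gives no detection calls, and it compresses differences of dim genes. Probe sets with 1 gene symbol (41091) gave 19775 genes, each taken from its probe set of highest mean level across the 24 arrays. The number of arrays limits the precision.

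Differences were tested with limma 3.58.1 in R 4.3.3 (1 mean for each of 8 groups, eBayes), with 16 residual and 5.22 prior degrees of freedom and 2-sided p-values, Benjamini-Hochberg adjusted across 19775 genes. The fit was tested on simulated data. The lists, their members and the rule for named genes were chosen with earlier results of these data known. By that rule the text names EZH2 and the 20 highest and 16 lowest called genes with separate arms. It also names up to 6 called and 4 bright members of each list, and other probe sets of all these genes. Marker genes, IFNB1, EGR1, IKBKE, ID1, ID4, SIK1 and genes of the day 6 comparison were chosen after their values were seen. Alternatives left out each array, blocked by replicate number, weighted arrays, averaged probe sets, dropped dim genes or recentred values. Promoter windows are RefSeq's on GRCh38.p14, matched by symbol.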

Additional observations from a re-analysis of the deposited data

Results flagged for a closer look

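The effect at day 6 differed from that at day 2 for 2080 genes upward and 2164 downward (limma, adjusted over all genes). Among genes that rose at day 2, the effect at day 6 was larger by 4.71 for H2AC6, 4.58 for MPEG1, 4.40 for AIM2, 4.02 for CXCR4, 3.81 for RIN2 and 3.71 for P4HA2. The day 2 calls of H2AC6, CXCR4 and P4HA2 were lost without any 1 of several arrays, as were those of the next genes other than GPHN. Changes in the other direction were -1.63 for SMCO4, -1.39 for ARG2, -1.33 for GPHN, -0.98 for NOTCH2, -0.91 for CCSAP and -0.91 for HMGB3.

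Among genes that fell at day 2, CDC45 changed by a further -1.73, CDC25A by -1.54, LTA by -1.52 and SAPCD2 by -1.46. The fall was weaker or had turned by day 6 for RAB24 (0.72), HSD11B1 (0.55), BST1 (0.55) and TMEM234 (0.46). With 3 arrays in a group no single array was tested as an outlier.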

How the results depend on the processing

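Of 158 named genes called at day 2, 94 kept the call without any 1 array, 72 kept it in every setting in which they were tested, and none of the 158 changed sign in any. The replicate numbers are shared by the groups, and 21 of the 24 arrays correlated best with their own number. Over the series, deviations from the group mean correlated at a median of 0.24 between arrays of the same number and -0.13 between different numbers. For the equally numbered DMSO and inhibitor arrays of day 2 the values were 0.36, 0.04 and 0.43. The main fit did not take the numbers as pairs, so a part shared by number stays in its spread. With the replicate number as a block, 1126 genes rose and 523 fell at day 2, 6 and 1 were called for day 2 minus day 1, and 9 and 2 for day 3 minus day 2. With that block within each day the pairs of counts were 1233 and 633, 11 and 1, and 14 and 3. The block called 37 interferon-stimulated effector genes higher, against 25 without it, and 10 G1/S genes lower, against 3. The day 2 falls numbered 51 with only the day 2 arrays, 482 with array weights, 253 without the dimmest 40 percent of genes and 75 with the median gene shifted to 0. Array weights gave 1 gene higher for day 2 minus day 1, and 13 higher and 3 lower for day 3 minus day 2. In a setting chosen after the values were seen, without the arrays numbered 3, 464 rose and 41 fell. Leaving out 1 array at a time gave 474 to 620 rises and 63 to 140 falls at day 2, 0 to 0 each way for day 2 minus day 1, 0 to 30 higher and 0 to 51 lower for day 3 minus day 2 (30 without inhibitor replicate 1 of day 3, 51 without DMSO replicate 1 of day 3), and 1777 to 2005 and 1814 to 2166 for day 6 minus day 2. EZH2 at day 2 ranged from -0.16 to -0.02 over these and was not called in any setting. Signs of genes not called in either setting were not compared, and the causes of these changes were not tested.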
